A study of Mus musculus with 13 samples.

Results

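Fads1 and Elovl2 are the 2 genes of long-chain polyunsaturated fat synthesis among the 100 genes of a panel measured in regenerating mouse liver. Both were taken by symbol from the tables of transcripts per cell of 13 liver sections and from the transcript positions of 12 of these sections. The pair was chosen by these symbols with measured transcript levels of the same sections already known, among them the lower level of Elovl2 at 14 d. The differences in the level of Elovl2 that involve 14 d are therefore given as descriptions with no p-value or call. The 14 d ratio of the genes is a description too. Exact p-values of the ratio that include 14 d are given only to show how they depend on the processing, and they support nothing. Tests of the other measures, position at 14 d among them, are no independent support for the choice of these genes.

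Polyunsaturated fatty acids of the diet are lengthened and given further double bonds in alternating steps in the endoplasmic reticulum, and the liver is a main site of this work. Fads1 encodes the delta-5 desaturase, which makes arachidonic acid and eicosapentaenoic acid. Elovl2 encodes an elongase that acts downstream of it and lengthens these products on the way to docosahexaenoic acid, a fatty acid of membrane phospholipids. Hepatocytes stand in rows between the portal vein, where blood enters the lobule, and the central vein, where it leaves, and many of their genes are used more at one end of that row than at the other. In the RefSeq table of the mouse assembly GRCm38.p6, Fads1 (gene ID 76267) lies on chromosome 19 beside Fads2 and Fads3, and Elovl2 (gene ID 54326) lies on chromosome 13 between Sycp2l and Smim13. Of 19 genes listed for this pathway, Fads1 and Elovl2 are the 2 in the panel, and of 19 genes listed for fatty acid and sterol synthesis 0 are in it. How the desaturase step before Fads1 or the other elongases moved was therefore not analysed here.

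All sections came from livers of male C57BL/6 mice, an inbred laboratory strain, kept on regular chow and labelled as 2 months old. The labels give removal of 2/3 of the liver as the treatment of every group. Liver lobes were taken at 0 h (2 sections), 24 h (2), 48 h (2), 72 h (2), 14 d (3), 3 months (1) and 6 months (1). Molecular Cartography is an imaging method that marks and counts single transcripts of preselected genes in place in a tissue section, here frozen liver. The 0 h group, also operated on, is the baseline, and no group without surgery was analysed here. The labelled age may be that at surgery, and then the mice of 3 and 6 months were older than those of 0 h, with effects of age and of time since surgery not separable. No label says that sections of a time came from separate animals, so p-values may measure technical spread between sections alone. Slide 1 held section 1 of 0 h and of 72 h, both sections of 24 h and of 48 h, and the section of 3 months. Slide 2 held section 2 of 0 h and of 72 h, and the section of 6 months. Slide 3 held the 14 d sections and no others, and effects of slide and of time cannot be told apart for them. Neither 24 h section has a number and both name a single position on the slide, so their counts were summed to 1 library, which leaves 12 libraries. Numbers 1 and 2 of the 24 h sections are names in accession order.

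The 13 tables held 131221 cells and 55744933 transcripts in cells, with 1678015 to 9619206 transcripts per section and a median of 231 to 632 per cell. Sections 1 and 2 of 14 d were the densest, with medians of 632 and 626, and section 3 of 14 d stood at 470. The medians were 491 and 441 at 72 h and 314 and 317 at 0 h. Cyp2e1, a drug-metabolizing enzyme of central hepatocytes, took 26.7 to 34.3% of the transcripts at 0 h and 7.96 to 14.9% at 24 h and 48 h, which moves the share left to every other gene. The 15 central and portal hepatocyte genes used here to place cells along the lobule made up 40.3 to 61.4% of the transcripts of cells without markers of other cell types. Probes differ between genes in ways that the sources used here do not give, so nothing is read about which of the genes is more abundant, and their ratio is read only for how it changes between sections and classes. Of their transcripts, 60.0 to 76.2% (Fads1) and 62.8 to 81.2% (Elovl2) fell inside a cell outline, against 60.2 to 79.8% over all genes.

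Elovl2 was at its lowest relative to the panel at 14 d. Its level, in CPM after TMM scaling (counts relative to the library total, with the typical gene taken as constant), was 6596 and 4926 at 0 h and 6199 at 24 h. It was 8270 and 7982 at 48 h and 7144 and 5913 at 72 h. At 14 d it was 1522, 2109 and 1833, and then 8257 at 3 months and 3305 at 6 months. All 14 d libraries lay below every other library, and the libraries of 0 h, 24 h and 72 h overlapped. From lowest to highest, the times ran from 14 d (1821 ± 294 CPM, SD, n = 3) over 6 months, 0 h (5761 ± 1181, n = 2), 24 h, 72 h (6529 ± 870, n = 2) and 48 h (8126 ± 203, n = 2) to 3 months. Between 0 h and 72 h the steps of this order were smaller than the SD of the 0 h libraries.

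Fads1 stood lowest at 24 h and showed no such drop at 14 d. Its level was 11547 and 15743 CPM at 0 h, 7214 at 24 h, 11390 and 15267 at 48 h, and 17226 and 16454 at 72 h. At 14 d it was 10788, 15059 and 13593, at 3 months 14488 and at 6 months 11039. The 24 h library lay below all others, and both 72 h libraries lay above all others. In order of level, the times ran from 24 h over 6 months, 14 d (13147 ± 2170 CPM, SD, n = 3), 48 h (13329 ± 2741, n = 2), 0 h (13645 ± 2967, n = 2) and 3 months to 72 h (16840 ± 546, n = 2). The libraries of 0 h, 48 h and 14 d overlapped, and so these times have no order.

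**Figure D1:**
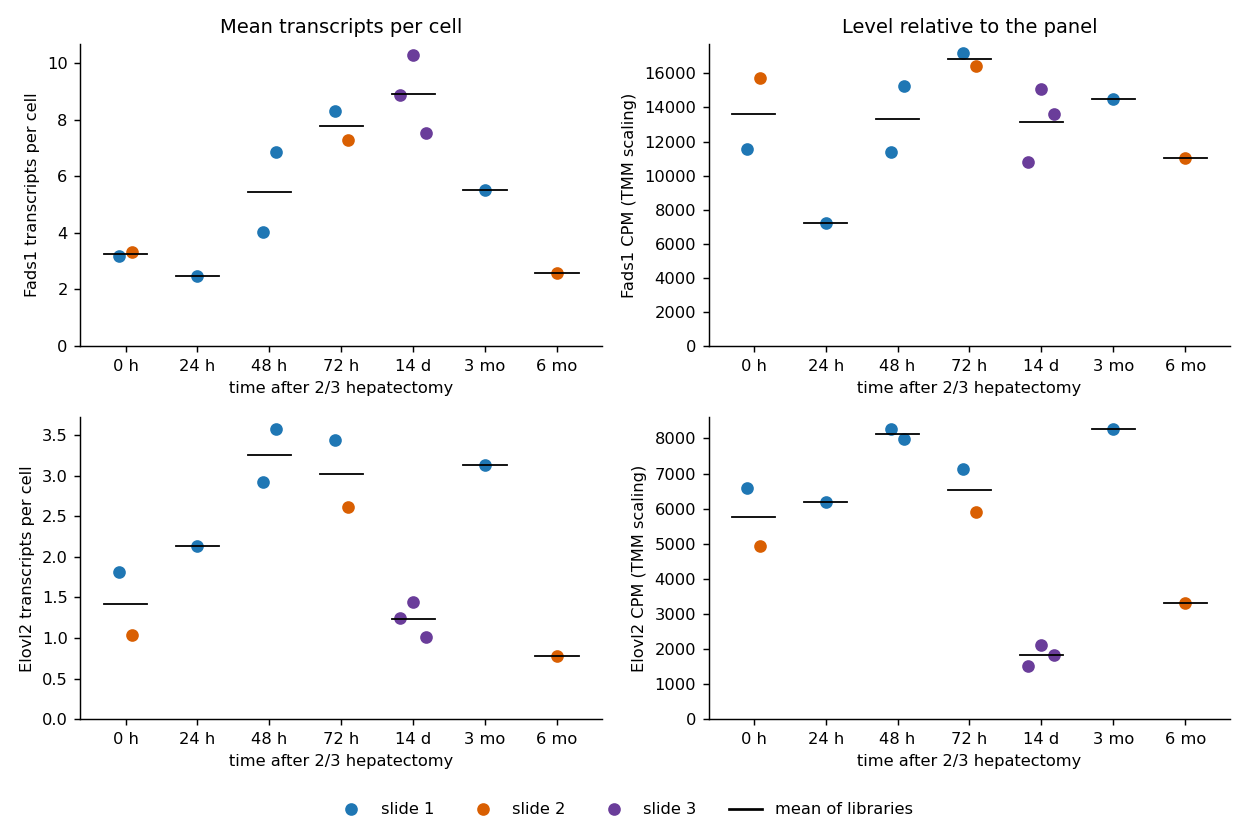
Level of Fads1 (upper panels) and Elovl2 (lower panels) by time after surgery, as mean transcripts per cell (left) and as TMM-scaled CPM (right), with 1 point per library coloured by slide and a bar at the mean of the libraries. Elovl2 at 14 d lies below every other library in CPM, at 1522 to 2109, but overlaps the 0 h libraries in transcripts per cell, at 1.02 to 1.44 against 1.04 and 1.81.

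In the fit of all 99 testable genes, Elovl2 fell by 1.66 ± 0.24 (log2, SE) from 0 h to 14 d, 3 libraries against 2. Between 0 h and 14 d, Fads1 stood at -0.05 ± 0.24 and was not called at an adjusted p threshold of 0.05, where 28.3% of the 99 genes were called in either direction. At 24 h Fads1 stood at -0.92 ± 0.34 against 0 h, with an adjusted p of 0.0575 in edgeR's quasi-likelihood test (Benjamini-Hochberg), and 22.2% of genes were called. Its call at 24 h depended on the setting, with an adjusted p of 0.031 in DESeq2, 0.00628 in edgeR with the 24 h sections as 2 libraries, and 0.265 in edgeR with the slide as a block. Leaving out section 1 of 0 h also brought a call (adjusted p 0.0137, edgeR), as did leaving out either section of 24 h or of 48 h or section 1 of 72 h (up to 0.0413).

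The remaining comparisons with 0 h brought no call of either gene in edgeR, where 23.2% of genes were called at 48 h, 15.2% at 72 h and 23.2% at 6 months. At 3 months 0% of genes were called in edgeR, with 3 higher and 9 lower at an unadjusted p under 0.05 and 1 higher and 1 lower in DESeq2. Elovl2 stood at 0.11 ± 0.32 at 24 h, 0.50 ± 0.27 at 48 h, 0.18 ± 0.27 at 72 h, 0.52 ± 0.32 at 3 months and -0.80 ± 0.34 at 6 months. Fads1 stood at -0.03 ± 0.26 at 48 h, 0.30 ± 0.26 at 72 h, 0.09 ± 0.32 at 3 months and -0.31 ± 0.33 at 6 months. The 6 month value of Elovl2 had an adjusted p of 0.0885 in edgeR and 0.0355 in DESeq2, and it rests on 1 section. Without section 2 of 0 h it stood at -0.98 and was called in edgeR (adjusted p 0.0084), and the 3 month value was called without section 1 of 0 h, at 0.85 (0.0497).

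Between successive times, Elovl2 stood at -1.84 ± 0.24 from 72 h to 14 d, 2.18 ± 0.28 from 14 d to 3 months and 0.86 ± 0.29 from 14 d to 6 months. These differences use the same 14 d libraries, and the last moved to 0.40 with total-count scaling and to -0.67 by cell number. From 24 h to 48 h, where 5.05% of genes were called in either direction, and from 48 h to 72 h, where 9.09% were, neither gene was called.

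How the sections are scaled decides which of the genes appears to move at 14 d. In mean transcripts per cell, Elovl2 stood at 1.81 and 1.04 at 0 h and at 1.25, 1.44 and 1.02 at 14 d, so that the groups overlap. Fads1 stood at 3.17 and 3.31 transcripts per cell at 0 h and at 8.88, 10.3 and 7.54 at 14 d, with no overlap. Scaled by cell number, Elovl2 at 14 d was -0.20 ± 0.33, whereas Fads1 was higher by 1.46 ± 0.30 (adjusted p 0.00103, edgeR). In that scaling the median gene of the panel stood 1.47 higher than with TMM, and 75 genes were called higher and 2 lower, against 15 and 13 with TMM. Set against the median gene, Fads1 differed by less than its SE and Elovl2 was lower in both scalings. Total-count scaling lay between these, with Elovl2 at -0.94 ± 0.25 and Fads1 at 0.73 ± 0.21 (adjusted p 0.0165, edgeR), a median gene 0.74 higher and 37 genes called higher against 5 lower.

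Per cell, the other times were more often above 0 h than below it. Fads1 stood at 2.37 and 2.65 per cell at 24 h, 4.03 and 6.85 at 48 h, 8.29 and 7.27 at 72 h, 5.50 at 3 months and 2.60 at 6 months. Elovl2 stood at 2.27 and 1.95 at 24 h, 2.93 and 3.58 at 48 h, 3.44 and 2.61 at 72 h, 3.14 at 3 months and 0.777 at 6 months. Per cell, both genes lay above every 0 h section at 48 h, 72 h and 3 months and below every 0 h section at 6 months. At 72 h, scaling by cell number called both genes higher, Fads1 by 1.26 ± 0.32 (adjusted p 0.00714) and Elovl2 by 1.09 ± 0.37 (0.0311) in edgeR. There 38 of 99 genes were called higher and 0 lower, with the median gene 0.91 above its TMM value. At 48 h Elovl2 was called higher by 1.19 ± 0.37 (adjusted p 0.028, edgeR) in the same scaling, and Fads1 stood at 0.75 ± 0.32. At that time 32 of 99 genes were called higher and 2 lower, with the median gene 0.72 above.

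The share of cells with at least 1 Elovl2 transcript overlapped between 0 h and 14 d, while cells at 14 d held more transcripts in all. That share was 66.1 and 50.5% at 0 h and 56.8, 62.0 and 52.0% at 14 d. When each cell was thinned to 100 transcripts, which leaves out 137 to 1827 shallower cells per section, the share was 39.9 and 25.5% at 0 h and 16.6, 19.1 and 18.2% at 14 d. At equal depth the groups no longer overlap. For Fads1 the thinned share was 60.9 and 61.8% at 0 h, 48.3 and 50.5% at 24 h, and 72.8, 77.7 and 76.2% at 14 d, with 88.2, 86.7, 82.8, 83.4, 96.7, 97.2 and 95.4% before thinning. The highest thinned shares were 83.3% for Fads1 and 58.4% for Elovl2, both in section 2 of 48 h. These shares depend on how much of a cell's total the other genes take, Cyp2e1 first among them.

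Within a section the ratio of Fads1 to Elovl2 transcripts needs no scaling. It was 1.75 and 3.20 at 0 h, 1.16 at 24 h, 1.38 and 1.91 at 48 h, 2.41 and 2.78 at 72 h, 7.09, 7.14 and 7.41 at 14 d, 1.75 at 3 months and 3.34 at 6 months. The 14 d sections lay above all others and close together, with an SD of 0.035 (n = 3) on the log2 scale, whereas the SD of the 0 h sections, on different slides, was 0.61 (n = 2). An exact permutation test of the log2 ratio over the 6 other times (9 libraries), chosen after seeing the data, gave p = 0.283.

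Set against the 0 h section of the same slide, the log2 ratio differed by -0.59 at 24 h, -0.35 and 0.13 at 48 h, 0.46 and -0.20 at 72 h, 0.0032 at 3 months and 0.063 at 6 months. The sections of 3 and 6 months thus lay nearest to the 0 h section of their own slide, and the 72 h sections went opposite ways on their slides. No 0 h section shared the slide of 14 d, and the part of slide 3 in its ratio cannot be told apart from time.

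**Figure D2:**
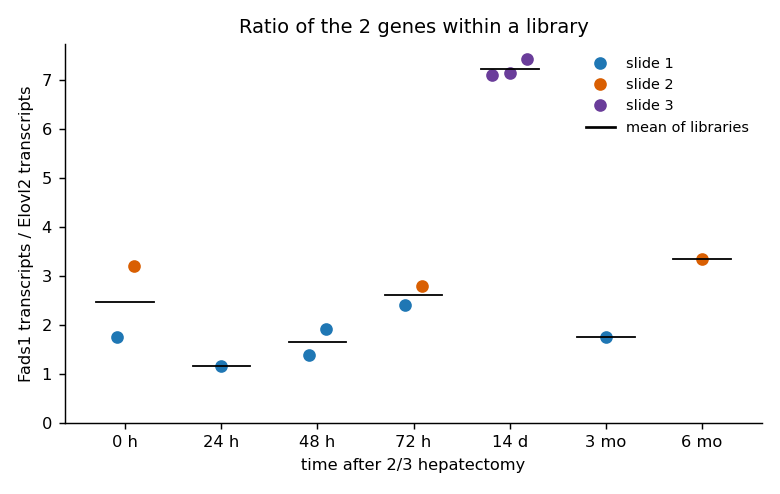
Ratio of Fads1 to Elovl2 transcripts in cells by time after surgery, with 1 point per library coloured by slide and a bar at the mean of the libraries. The 3 libraries of 14 d, all on slide 3, lie at 7.09 to 7.41, and the other 9 lie at 1.16 to 3.34, with 0 h at 1.75 on slide 1 and 3.20 on slide 2.

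Along the lobule, Fads1 lay to the portal side at 0 h and to the central side at 24 h and 48 h, and Elovl2 lay to the portal side throughout. Each section was divided into squares with sides of 400 coordinate units, called tiles here, and 486 to 1631 tiles per section held the 50 transcripts required. A tile was placed by a score, the mean level of 9 central genes such as Cyp2e1 and Oat minus that of 6 portal genes such as Pck1 and Gls2. All 15 genes lay on their known side in all 12 sections with positions, Cyp2e1 at a Spearman correlation of 0.92 to 0.97 and Pck1 at -0.97 to -0.88. Others were weaker in some sections, down to 0.04 for Cyp27a1, 0.16 for Glul, 0.21 for Lgr5 and -0.33 for Cps1. Position is given as the Spearman correlation over tiles of a gene's share of the tile's transcripts with that score, positive for central.

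For Fads1 this correlation was -0.80 and -0.74 at 0 h, 0.58 and 0.56 at 24 h, and 0.70 and 0.40 at 48 h. At 72 h it was -0.48 and -0.10, at 14 d -0.50 and -0.44, at 3 months -0.92 and at 6 months -0.79. All sections of 24 h and 48 h lay above 0 and all others below. For Elovl2 it was -0.91 and -0.88 at 0 h, -0.76 and -0.69 at 24 h, -0.79 and -0.82 at 48 h, and -0.86 and -0.85 at 72 h. It was -0.80 and -0.76 at 14 d, -0.94 at 3 months and -0.79 at 6 months.

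Against 0 h, Fads1 moved to the central side by 1.67 ± 0.20 in Fisher z (SE) at 24 h and 1.66 ± 0.16 at 48 h, with adjusted p of 1.2e-05 and 6.84e-07 in limma (Benjamini-Hochberg over 62 genes). Of these genes 17.7% were called at 24 h and 38.7% at 48 h, and Fads1 had the lowest p of all at both times. With the slide as a block the moves were 1.81 ± 0.21 and 1.81 ± 0.18, and both stayed called in limma. At 72 h Fads1 stood 0.71 ± 0.16 more central than at 0 h (adjusted p 0.0134, limma, 6.45% of genes called). At 14 d it stood 0.51 ± 0.16 more central (adjusted p 0.0327, limma, 19.4% called). The call of 72 h ended without section 1 of 0 h (adjusted p 0.131) or section 2 of 72 h (0.326), and that of 14 d without section 1 of 0 h (0.19) or either 14 d section (0.0864 and 0.21), all in limma. Both calls also ended with tiles of 200 units (0.48 at 72 h and 0.35 at 14 d), without Cyp2e1 (0.64 and 0.095), by transcripts per tile (0.27 and -0.16) and with the section number as a block (adjusted p 0.101 and 0.12, limma). At 3 months it stood at -0.57 ± 0.20 and at 6 months at -0.05 ± 0.20, neither of which was called, beside 4.84% and 0% of genes called, the latter with 6 genes more central and 8 more portal at an unadjusted p under 0.05 in limma.

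Elovl2 also moved toward the central side, as did many genes of the panel. At an unadjusted p under 0.05 in limma, 28 genes stood more central and 0 more portal at 48 h, and 19 and 3 at 14 d. By p in limma, Elovl2 ranked 7 of 62 genes at 24 h, 21 at 48 h and 10 at 14 d. Its differences from 0 h were 0.52 ± 0.15 at 24 h (adjusted p 0.0241, limma), 0.34 ± 0.12 at 48 h (0.0427, limma) and 0.40 ± 0.12 at 14 d (0.0327, limma). All 3 calls ended with tiles of 200 units, with Cyp2e1 left out, and with transcripts per tile in place of shares. They also ended when single sections were left out. At 24 h these were either section of 72 h or either of 14 d (adjusted p up to 0.059, limma), and at 48 h also section 1 of 0 h or either of 48 h (up to 0.149). At 14 d they were section 1 of 0 h, either of 72 h or either of 14 d (up to 0.304). At 6 months Elovl2 stood at 0.38 ± 0.15 and was called only without section 2 of 0 h, at 0.46 (adjusted p 0.018, limma). Whether Fads1 moved further than Elovl2 was not tested.

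With Cyp2e1 left out, the Fads1 share at 0 h lay to the central side, while transcripts per cell did not turn, with a log2 ratio of class 5 to class 1 cells, the most central and most portal of 5 equal classes, of -0.70 and -0.79 at 0 h. With Cyp2e1 removed from totals and score, the correlation of Fads1 was 0.29 and 0.20 at 0 h, 0.76 and 0.79 at 24 h, 0.87 and 0.68 at 48 h, 0.58 and 0.80 at 72 h, and 0.31 and 0.35 at 14 d. At 3 and 6 months it was -0.72 and -0.40. In that setting Fads1 was central from 0 h to 14 d and portal only at 3 and 6 months, and its move was 0.79 ± 0.22 at 24 h (adjusted p 0.107) and 0.83 ± 0.18 at 48 h (0.0285) in limma. At 3 months its difference from 0 h was then -1.15 ± 0.22 (adjusted p 0.0164, limma). Elovl2 stayed portal in all sections, at -0.89 to -0.54.

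Plain transcripts per tile of Fads1, a count in place of a share, turned from portal to central as the shares did. The score that places the tiles still uses shares, Cyp2e1 among them. Such counts also vary with how many transcripts a tile holds. Fads1 per tile correlated with the tile's total at -0.12 (3 months) to 0.83 (section 2 of 48 h). For Fads1 the correlation of transcripts per tile with the score was -0.43 and -0.35 at 0 h, 0.43 and 0.44 at 24 h, 0.33 and 0.22 at 48 h, -0.28 and -0.01 at 72 h, and -0.55 and -0.49 at 14 d. At 3 months it was -0.77 and at 6 months -0.56. The moves at 24 h (0.88 ± 0.15, adjusted p 0.000583) and 48 h (0.70 ± 0.13, 0.00156) were called in limma, and that of 14 d turned to -0.16 ± 0.13. Of 39 genes that lay portal in both 0 h sections by share, 4 (10.3%) lay central in both sections at 24 h, namely Cpt2, Fads1, Pecam1 and Znrf3. At 48 h there were 6 (15.4%), namely Arnt, Ccnd1, Cpt2, Fads1, Lrp5 and Znrf3.

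**Figure D3:**
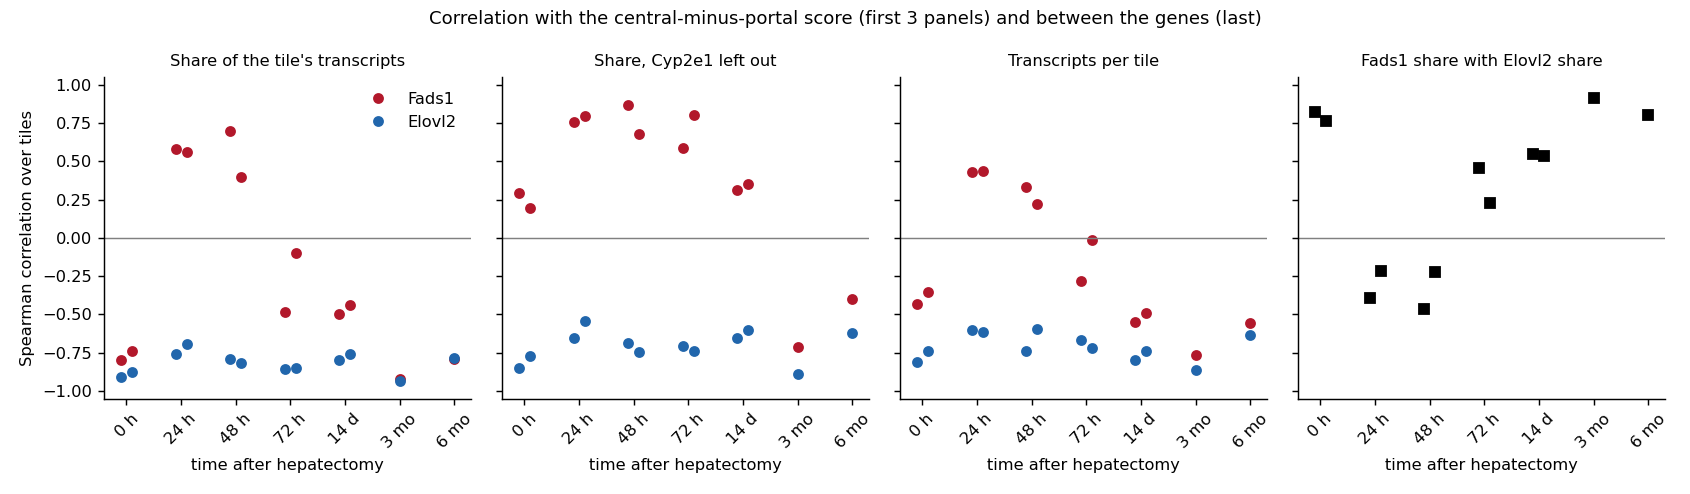
Spearman correlation over tiles with the central-minus-portal score for Fads1 (red) and Elovl2 (blue), by share of transcripts, by share without Cyp2e1 and by transcripts per tile, and, in the last panel, of Fads1 share with Elovl2 share, with 1 point per section. Fads1 lies above 0 at 24 h and 48 h in all 3 measures, but also at 0 h, at 0.29 and 0.20, when Cyp2e1 is left out, while Elovl2 lies below 0 everywhere.

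Cells gave the same picture in plain numbers. The cells of each section with at least 50 transcripts were cut into 5 equal classes by the same score, from class 1 (most portal) to class 5 (most central), 891 to 3072 cells per class. At 0 h a class 1 cell held 4.12 and 4.52 Fads1 transcripts on average and a class 5 cell 2.53 and 2.60. At 24 h the order was turned, with 1.95 and 2.03 in class 1 and 3.16 and 3.39 in class 5. Against 0 h, portal cells thus held fewer Fads1 transcripts at 24 h and central cells more.

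At 48 h a class 1 cell held 3.62 and 6.83 Fads1 transcripts and a class 5 cell 4.98 and 7.76. By 72 h portal cells were again the higher, at 10.2 and 7.86 in class 1 against 6.62 and 7.17 in class 5. At 14 d they stood at 10.9, 12.3 and 8.57 against 6.02, 7.28 and 5.84. Per cell, central cells at 14 d thus held more Fads1 transcripts than portal cells at 0 h. They were also deeper, with medians of 597, 599 and 459 transcripts against 304 and 342. Per 1000 transcripts the order was the other way, at 10.2, 12.2 and 12.6 against 13.1 and 12.9. As a log2 ratio of class 5 to class 1 in transcripts per cell, the lowest values were those of 3 months, at -1.66 (8.64 against 2.73), and 6 months, at -1.81 (4.68 against 1.34).

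For Elovl2 class 1 was above class 5 in 13 of 13 sections. Class 1 cells held 3.54 and 2.09 Elovl2 transcripts at 0 h, 3.37 and 3.24 at 24 h, 4.61 and 5.58 at 48 h, and 6.94 and 4.36 at 72 h. At 14 d they held 2.28, 2.39 and 1.68, at 3 months 5.96 and at 6 months 1.61. Class 5 cells held 0.597 and 0.301 at 0 h, 1.34 and 1.02 at 24 h, 1.31 and 1.65 at 48 h, and 1.10 and 0.933 at 72 h. At 14 d they held 0.395, 0.517 and 0.373, at 3 months 0.798 and at 6 months 0.242. Per cell, portal cells at 14 d lay between the 0 h sections in sections 1 and 2 and below them in section 3. Per 1000 transcripts they all lay below, at 3.24, 3.44 and 3.19 against 11.3 and 5.95. Central cells at 24 h, 48 h and 72 h lay above both 0 h sections.

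As a share of transcripts, the log2 ratio of class 5 to class 1 for Fads1 was -1.20 ± 0.15 (SD, n = 2) at 0 h, against 0.66 and 0.74 in the 24 h sections and 0.48 ± 0.30 (n = 2) at 48 h. With Cyp2e1 left out of totals and score the means were 0.21, 1.29 and 1.01, so that 24 h and 48 h still lay above 0 h but by less. For Elovl2 that ratio was -3.17 and -3.09 at 0 h, -1.37 and -1.66 at 24 h, and -1.58 and -1.66 at 48 h. The Elovl2 slope was thus shallower at 24 h and 48 h than at 0 h, also without Cyp2e1, at -1.74 for 0 h, -0.89 for 24 h and -1.09 for 48 h.

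**Figure D4:**
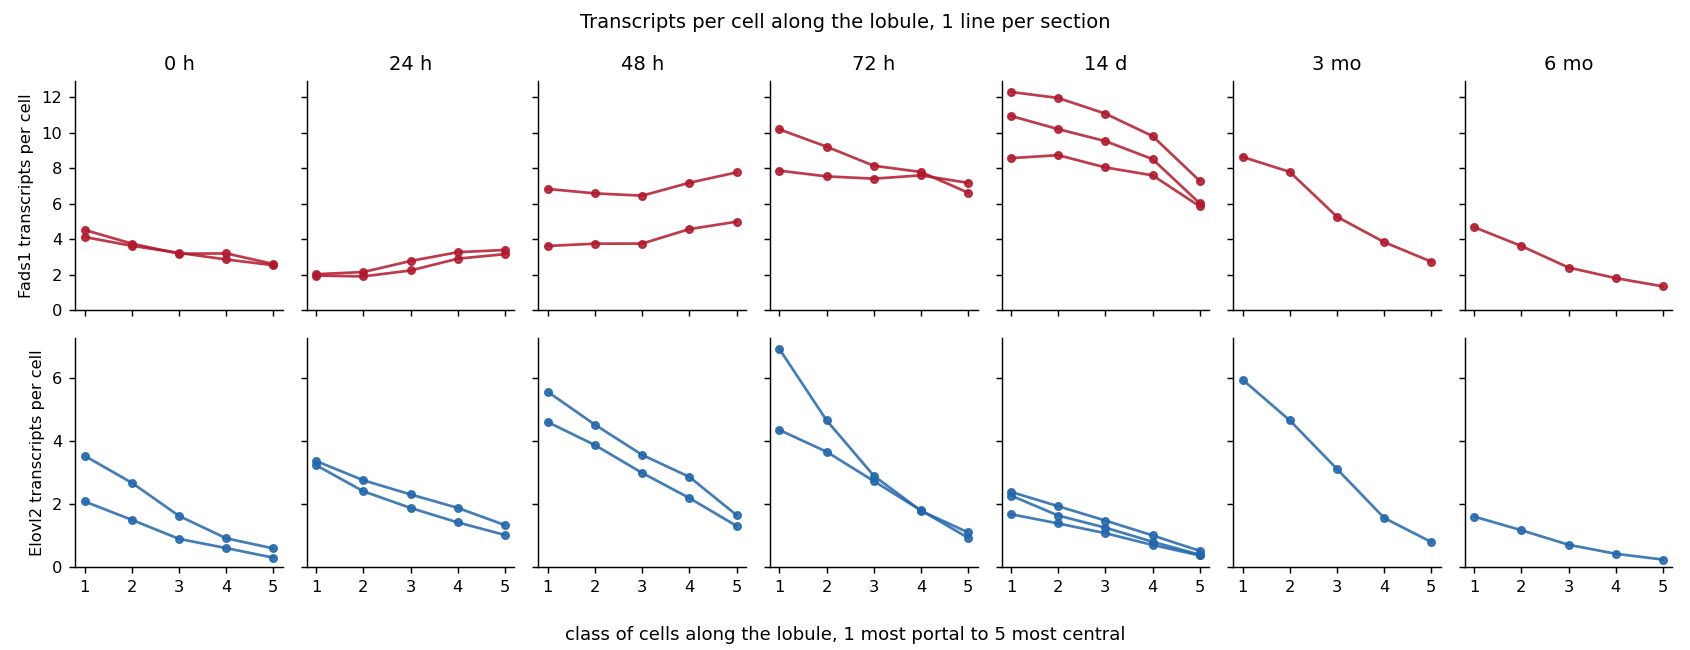
Mean transcripts per cell of Fads1 (upper row) and Elovl2 (lower row) in 5 equal classes of cells from the most portal (1) to the most central (5), with a panel per time and a line per section. Fads1 lines end higher at the central side at 24 h (1.95 to 3.16 in section 1) and 48 h and lower at all other times, while every Elovl2 line ends lower.

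The ratio of Fads1 to Elovl2 rose from class 1 to class 5 in every section. In class 1 it was 1.16 and 2.16 at 0 h, 0.577 and 0.625 at 24 h, and 4.81, 5.14 and 5.09 at 14 d. In class 5 it was 4.25 and 8.64 at 0 h, 2.36 and 3.32 at 24 h, and 15.2, 14.1 and 15.7 at 14 d. The high ratio of 14 d therefore held at both ends of the lobule, above both 0 h sections in each class.

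**Figure D5:**
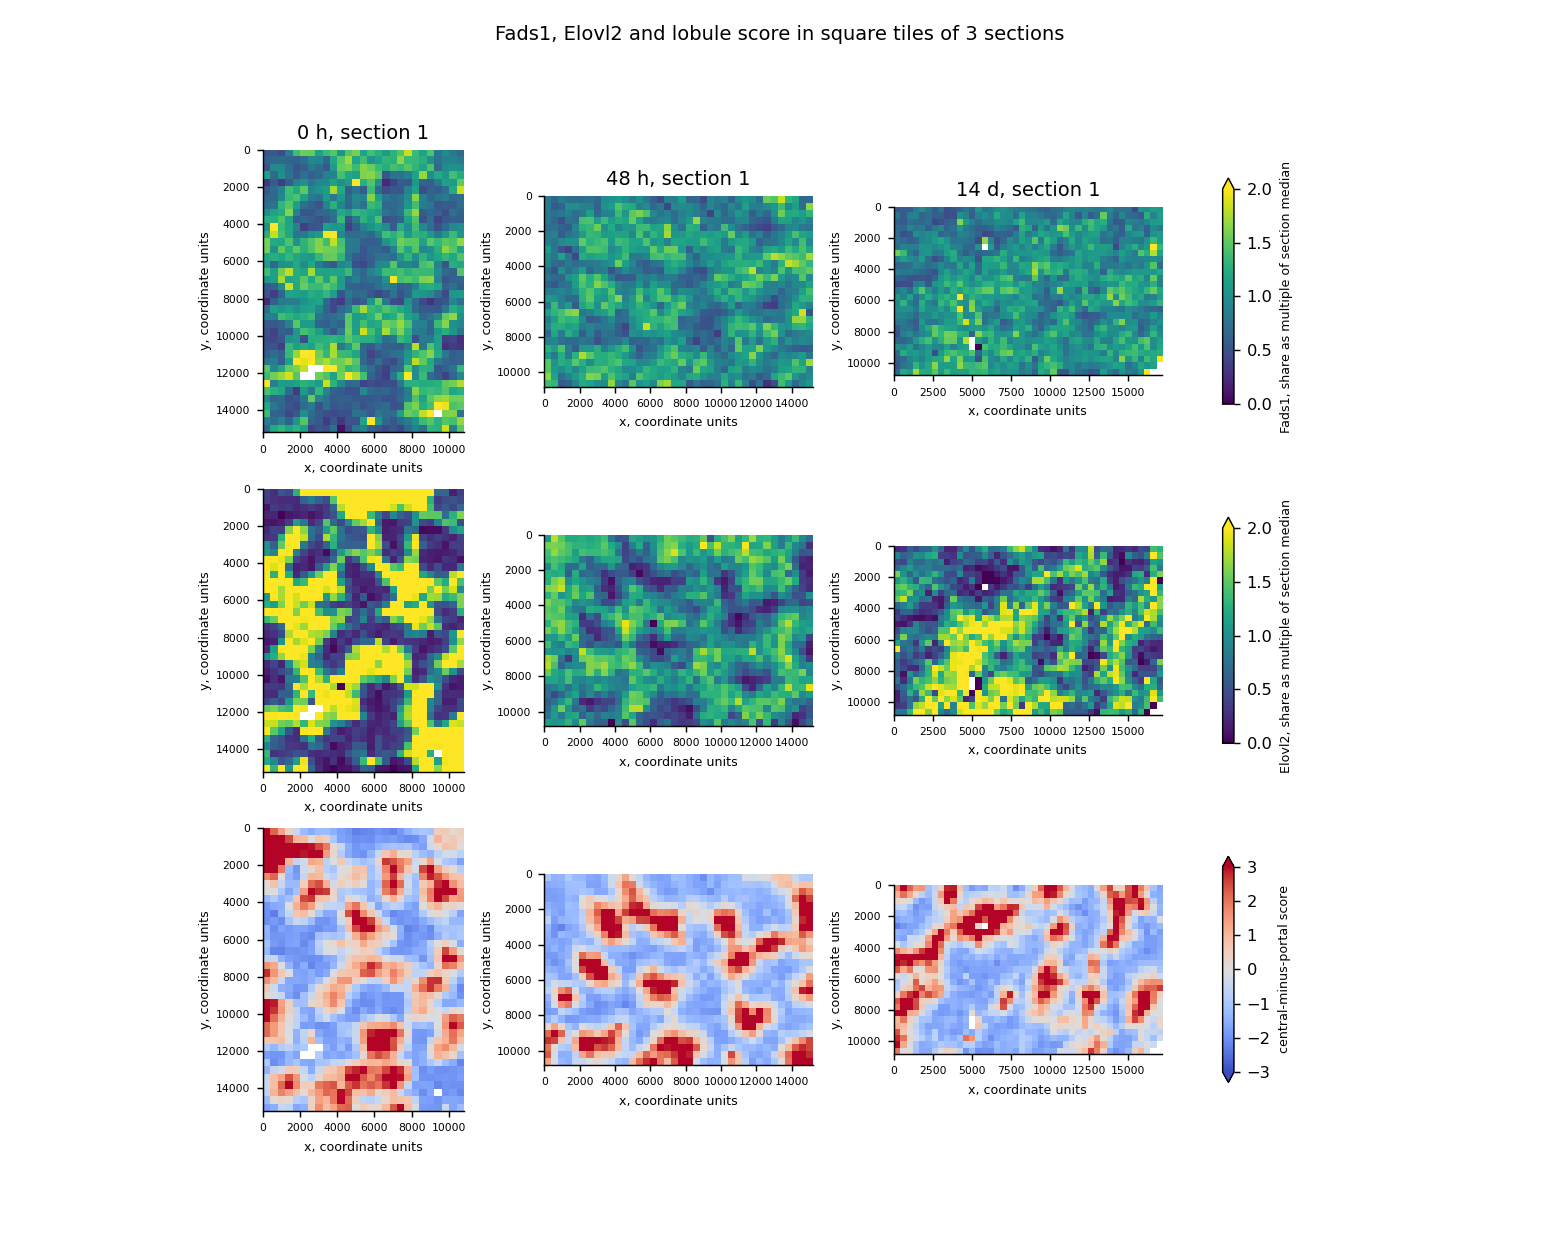
Maps of section 1 of 0 h, 48 h and 14 d in square tiles of 400 coordinate units, with Fads1 and Elovl2 as multiples of the section's median share (colour capped at 2) and the central-minus-portal score (colour capped at -3 and 3), and white where a tile has too few transcripts. Red central islands are dark for Elovl2 in all 3 sections, and for Fads1 they are dark at 0 h (correlation -0.80) and bright at 48 h (0.70).

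Over tiles, the shares of the genes ran together at 0 h and in opposite directions at 24 h and 48 h. The Spearman correlation of their shares was 0.82 and 0.76 at 0 h, -0.40 and -0.22 at 24 h, and -0.47 and -0.22 at 48 h. It was 0.45 and 0.23 at 72 h, 0.55 and 0.54 at 14 d, 0.91 at 3 months and 0.80 at 6 months. Shares of a tile have a common total, and in transcripts per tile the correlation was positive in all 12 sections, from 0.16 in section 2 of 24 h to 0.89 at 3 months. The lowest values, 0.22, 0.16 and 0.17, were again those of 24 h and of section 1 of 48 h.

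Over single cells the relation of the shares was weaker. The correlation of the shares ran from -0.10 in section 1 of 48 h to 0.49 at 3 months. Within the 5 classes its median ran from 6.32e-05 to 0.13 per section. In transcripts per cell the correlation was positive in all sections, from 0.17 in section 2 of 24 h to 0.58 at 3 months. By this count it was no weaker than over tiles in section 2 of 24 h (0.167 against 0.160) and section 1 of 48 h (0.21 against 0.17). Cells of a section share a library and few transcripts each. From 37.3% of cells at 6 months to 84.7% in section 2 of 48 h held at least 1 transcript of both genes.

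Fads1 and Elovl2 differed in cells that carry transcripts of other cell types. Cells with at least 2 transcripts of markers were compared with cells holding fewer of all of them, in each of 13 sections. In cells with macrophage markers (Adgre1 and Lyz2), the Fads1 share was higher in 13 of 13 sections, by a median of 0.39 in log2. The same held for endothelial markers (Pecam1, Wnt2, Wnt9b and Rspo3, median 0.37), for the stellate cell gene Lrat (0.41) and for the leukocyte gene Ptprc (0.42). The Elovl2 share was lower in 9, 12, 11 and 11 of 13 sections for these markers, by medians of -0.25, -0.32, -0.24 and -0.33. In cells with Sox9, a gene of bile duct cells, both were higher, Fads1 in 11 of 13 sections (median 0.42) and Elovl2 in 13 of 13 (0.35).

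These cells were no pure classes of another type. From 27.9 to 52.7% of their transcripts were those of the 15 hepatocyte genes, so that no cells lacking hepatocyte transcripts were at hand to give a background share. Their median depth was 148 to 724.5 transcripts per section, against 314 to 743 in cells without markers. The part of Cyp2e1, of depth, of position along the lobule and of neighbouring transcripts in these differences was not tested. Over tiles, the share of the endothelial marker Wnt2 correlated with that of Elovl2 at -0.54 to -0.27 over 12 sections. With Fads1 it correlated at -0.53 to 0.40.

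Over the 12 libraries, the panel genes whose log2 CPM ran most like that of Fads1 were Hsd17b13, a lipid droplet enzyme (Pearson r 0.80), Pon1, a paraoxonase of high-density lipoprotein (0.58), and Arnt (0.48), among 58 genes with at least 500 counts in every library. For Elovl2 these were Znrf3 (0.89), C6 (0.86) and Cpox (0.85). Libraries share slides and a scaling, and for Elovl2 the 14 d libraries stand apart. Over tiles, the median Spearman correlation of shares was highest with Hsd17b13 for both, at 0.55 for Fads1 (-0.54 to 0.92 over sections) and 0.83 for Elovl2 (0.71 to 0.92). Hsd17b13 is 1 of the 6 portal genes of the score, with which it correlated at -0.93 to -0.83. Its likeness to these genes is therefore not separate from their position along the lobule. Fbp1, a gluconeogenesis enzyme, and Vtn followed for Fads1 at 0.54 and 0.52, and Igf1 and Fbp1 for Elovl2 at 0.81 and 0.80. Only for Fads1 did sections with a negative correlation occur with these genes.

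Of 21 genes listed for lipid handling and fat oxidation, 6 are in the panel, namely Cpt2 (carnitine palmitoyltransferase of mitochondria), Cidea and Hsd17b13 of lipid droplets, and Apof, Apom and Pon1 of lipoproteins. Against 0 h, 1 of 6 was called lower at 24 h, at 48 h and at 6 months, each time Pon1, and 0 at 72 h, 14 d and 3 months in edgeR. Over the panel, 22.2% of genes were called in either direction at 24 h, 23.2% at 48 h and 23.2% at 6 months. At 72 h 15.2% were called and at 14 d 28.3%. DESeq2 called 1 of 6 lower at 48 h, where it called 12 panel genes higher and 14 lower. It called 0 of 6 at 72 h (12 panel genes higher, 11 lower) and at 14 d (21 and 17). At an unadjusted p under 0.05 in edgeR, 1 of 6 was higher at 72 h and 1 lower at 14 d. Over the panel, 22 of 99 genes were higher at 72 h and 19 lower at 14 d by that rule. With 1 library each, the 6 ran from -1.16 (Pon1) to 0.0012 (Cpt2) at 24 h and from -1.12 (Apom) to 0.65 (Cidea) at 3 months. Pon1 fell by 1.16 ± 0.32 at 24 h (adjusted p 0.0161), by 0.91 ± 0.25 at 48 h (0.014) and by 1.36 ± 0.32 at 6 months (0.00465) in edgeR. The median of the 6 was -0.53 at 24 h, against -0.09 over all genes, and -0.0014 at 14 d, against 0.07 over all genes. At 14 d Hsd17b13, whose share ran most like that of Elovl2 over tiles, stood at 0.29 ± 0.25 and was not called. The lowest at 14 d were Apom at -0.59 ± 0.26 and Cpt2 at -0.40 ± 0.24.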

How the data were processed

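The authors deposited whole-number transcript counts per gene and cell for 13 sections, and, for 12, transcript positions (coordinate unit not stated). Decoding and cell outlining are not given in the sources used here. A gene without a line was taken as 0. Counts were summed per section (both 24 h sections to 1 library) and fitted with edgeR 4.0.16 in R 4.3.3 (TMM, robust quasi-likelihood F test, all 7 times, the 99 genes reaching 10 counts in 2 or more libraries, 5 residual degrees of freedom, Benjamini-Hochberg, threshold 0.05). SE was taken as the absolute log2 fold change over the square root of F. CPM is relative to TMM-scaled totals. Times with 1 library borrow the spread of the others. TMM takes most genes as constant, and in a panel this small and preselected that may not hold. Position correlations were Fisher-transformed and compared by limma 3.58.1 with robust moderation and 4 residual degrees of freedom, over the 62 genes that reached 500 transcripts in all sections, and the tested gene was left out of its own score. Permutation, tiles and classes used Python 3.11.15. Both fits were tested on simulated data. No pair of sections was identical, and cell names shared by sections, at most 2 per pair, are coincident coordinates.

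Named genes are the 2 genes themselves, the 3 most like each over libraries and over tiles, the panel's members of the lipid lists, and genes turning from portal to central, which were chosen after their values were seen. The genes, lists and tests were chosen with earlier results of these data known. Alternatives were other scalings and filters, DESeq2 1.42.0, all transcripts, other uses of the 24 h and 14 d sections, slide or section number as a block, other tiles, and leaving out each section. Tiles from transcripts in cells of all 13 sections and the ratio without 14 d were added after seeing the data.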

Additional observations from a re-analysis of the deposited data

Results flagged for a closer look

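The level of Elovl2 differed between successive times around 14 d, by contrasts of the same edgeR fit. The low 14 d level was known when the genes were chosen, so these differences are a description with no p-value. From 72 h to 14 d Elovl2 stood at -1.84 ± 0.24 (log2, SE), and it was lower in 3 of 3 libraries than in both of 72 h. From 14 d to 3 months it stood at 2.18 ± 0.28, which rests on 1 section of another slide. From 14 d to 6 months it stood at 0.86 ± 0.29, and at 0.71 to 1.02 when single sections were left out. That last difference was 0.40 with total-count scaling, 1.00 ± 0.52 with the 14 d sections as 1 library and -0.67 by cell number. All 3 differences share the 14 d libraries of slide 3, so they are not independent of each other. Over the same steps Fads1 stood at -0.36 ± 0.24, 0.14 ± 0.30 and -0.25 ± 0.31 and was not called. By cell number Fads1 stood at -1.78 from 14 d to 6 months, which rests on 1 section of 6 months. In that scaling the median gene of the panel was itself shifted by -1.54 against TMM over this step. From 24 h to 48 h Fads1 stood at 0.89 ± 0.34 (adjusted p 0.148, edgeR), which was called with the 24 h sections as 2 libraries.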

How the results depend on the processing

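Of 417 values under alternatives other than leaving out a section, 348 kept direction and side of the threshold. Scaling changed most (edgeR). With total-count scaling, Elovl2 stood at 1.15 and Fads1 at 0.70 at 48 h, and Fads1 at 0.77 at 72 h and 0.73 at 14 d, all called. In that scaling 40 of 99 genes were called higher and 2 lower at 48 h, 26 and 1 at 72 h, and 37 and 5 at 14 d. At 6 months Fads1 stood at 0.014, and from 14 d to 6 months Elovl2 at 0.40 (1.00 with the 14 d sections as 1 library). By cell number the values were 1.19 and 0.75 at 48 h, 1.09 for Elovl2 and 1.26 for Fads1 at 72 h, -0.20 and 1.46 at 14 d. Between times they were 0.19 (72 h to 14 d), -0.69 (14 d to 3 months) and -1.78 (14 d to 6 months) for Fads1, and -0.67 for Elovl2 from 14 d to 6 months. Over these 3 steps the median gene was shifted against TMM by 0.56, -0.84 and -1.54. The 24 h fall of Fads1 was called with TMM without Cyp2e1 (-0.92), DESeq2 (-0.98), at least 100 counts in every library (-1.04) and the 24 h sections as 2 libraries (-0.88). The 6 month fall of Elovl2 was called with the first, the second and the last of these (-0.80, -0.77 and -0.84). Other turns were uncalled. They were Elovl2 at 24 h with 14 d as 1 library (-0.027) or slide 1 alone (-0.10), Fads1 at 48 h with the slide as a block (0.12) or slide 1 alone (0.24), and Fads1 at 14 d with at least 100 counts (0.093) or 24 h as 2 libraries (0.065), and at 6 months with at least 100 counts (0.0051).

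Elovl2 positions (limma) lost their call at 24 h, 48 h and 14 d with tiles of 200 units (0.38, 0.28 and 0.33), without Cyp2e1 (0.45, 0.23 and 0.40) and by transcripts per tile (0.33, 0.21 and 0.012), and at 48 h with the slide as a block (0.39). Fads1 lost its call without Cyp2e1 at 24 h (0.79), and at 72 h and 14 d with tiles of 200 units (0.48 and 0.35), without Cyp2e1 (0.64 and 0.095) and by transcripts per tile (0.27 and -0.16). At 3 months it was called without Cyp2e1 (-1.15). At 6 months it turned with tiles of 800 units (0.021) and with transcripts in cells (0.037). Without Cyp2e1 the class ratio of Fads1 turned at 0 h (0.21), 72 h (0.84) and 14 d (0.41).

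Deviations of 12 same-number pairs correlated at -0.51 to 0.21, with 3 over 0.1. With 2 sections at a time the deviations are mirror images. For both numbers, 0 h with 48 h gave -0.51 and 0 h with 72 h gave 0.21. The pairs are thus fewer than 12 separate values and cannot decide whether section numbers pair the sections. With the section number as a block, the positions of Fads1 at 72 h (0.71, adjusted p 0.101, limma) and 14 d (0.51, 0.12) lost their call. The exact p of the ratio over all 7 times, 0.00628, uses the 14 d sections known beforehand and supports nothing. It was 0.0857 with that block, 0.113 with 14 d as 1 library, 0.667 on slide 1 (lowest possible 0.0667) and 0.283 without 14 d.

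Leaving out each section gave, for Elovl2 levels (24 h, 48 h, 72 h, 14 d, 3 months, 6 months), -0.19 to 0.50, 0.11 to 0.63, -0.075 to 0.31, -1.89 to -1.45, 0.42 to 0.85 and -0.98 to -0.43. For Fads1 levels it gave -1.09 to -0.58, -0.36 to 0.15, -0.0036 to 0.53, -0.28 to 0.15, -0.010 to 0.42 and -0.37 to -0.05. Elovl2 positions ran 0.44 to 0.60, 0.26 to 0.42, 0.09 to 0.25, 0.32 to 0.48, -0.35 to -0.18 and 0.30 to 0.46. Fads1 positions ran 1.60 to 1.74, 1.44 to 1.88, 0.49 to 0.92, 0.44 to 0.58, -0.64 to -0.49 and -0.12 to 0.020. The ratio's exact p ran from 0.00167 to 0.0282, which rests on the 14 d sections known beforehand and supports nothing. Levels between times ran 0.71 to 1.02 for Elovl2 from 14 d to 6 months and 0.60 to 0.93 for Fads1 from 24 h to 48 h. The cause of these changes was not tested. With the slide as a block, 14 d gave no value, since slide 3 holds that time alone. Groups of 1 to 3 sections limit the precision.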
